A study of Mus musculus with 12 samples.

Results

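The 6 regulatory T cell genes Foxp3, Il2ra, Ikzf2, Tnfrsf18, Tnfrsf4 and Tnfrsf9 were followed through bulk RNA sequencing of 12 orthotopic tumors of 4T1, a mouse mammary carcinoma line. They were taken by symbol from the 55401 genes of the expression table, and all 6 passed the filter on low values, as did 15504 genes in all. Balb/c mice, which per the methods were obtained at 6 to 8 weeks of age, received 4T1 cells, and each of 4 groups had 3 tumors, 1 library each. The control group received an isotype protein (IgG1-Fc), the IL-10-Fc group recombinant interleukin-10 joined to an Fc part, the aCSF1R group an antibody that binds CSF1R, the colony stimulating factor 1 receptor, and the BF10 group a fusion protein in which a murine antibody of that specificity carries human interleukin-10. Treatment started at a tumor volume of 100 mm3. The labels give 6 doses while the series text gives a lower number, so the number behind these tumors is uncertain. No label says that libraries of 1 group came from separate mice, so p-values measure the spread between these samples, whatever its source. The replicate numbers used here are those of the titles (4, 5 and 7 for control, 2, 4 and 7 for IL-10-Fc, 4, 6 and 8 for aCSF1R, and 3, 6 and 7 for BF10).

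Regulatory T cells are CD4 T cells that restrain other immune cells and that often gather in tumors. Foxp3 encodes their lineage-defining transcription factor, and Ikzf2 encodes Helios, a zinc finger protein that many of them carry. They take up interleukin-2 through a receptor whose high-affinity chain, CD25, is encoded by Il2ra. Tnfrsf18 (GITR), Tnfrsf4 (OX40) and Tnfrsf9 (4-1BB) encode costimulatory receptors of the tumor necrosis factor receptor family. Of the 6 genes Foxp3 is the most restricted to this lineage. The other 5 are also made by other cells, among them activated CD4 and CD8 T cells and, for several of them, natural killer cells, innate lymphoid cells, mast cells or dendritic cells. In bulk tumor RNA, fewer cells of a type and less RNA per cell cannot be told apart.

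In GENCODE M21 on build GRCm38, Foxp3 lies on chromosome X (7573644 to 7595245, plus strand), Il2ra on chromosome 2 (11642807 to 11693193, plus) and Ikzf2 on chromosome 1 (69531214 to 69687245, minus). The 3 receptor genes of the tumor necrosis factor receptor family lie on chromosome 4, all on the plus strand. Tnfrsf4 (156013843 to 156016612) ends 9551 bases before the start of Tnfrsf18 (156026164 to 156028895), and Tnfrsf9 (150914562 to 150946102) lies apart from both. The expression values are per gene over annotated exons, in 18 merged exon blocks for Foxp3, 9 for Il2ra, 10 for Ikzf2, 3 for Tnfrsf18, 7 for Tnfrsf4 and 11 for Tnfrsf9. Foxp3 overlaps Flicr, a noncoding RNA on its own strand, and Ppp1r3f, Ccdc22 and Gm36995 on the other strand. Ikzf2 overlaps Gm29114, Tnfrsf18 overlaps Gm16008 and Tnfrsf9 overlaps Camta1, each on the opposite strand. The libraries were stranded, but whether the quantification used the strand is not given in the sources used here, so reads shared with these neighbors could not be set apart.

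The 250 bases before RefSeq start sites (GRCm38.p6) are printed for the 4 windows, from 3 members, that held a STAT, NF-kB or TATA motif. In all 7 windows of 5 members were in the table, and Ikzf2 had none. Capitals mark matches to TTCNNNGAA, the palindrome bound by STAT factors, which act downstream of interleukin-2 and interleukin-10, to a form of the NF-kB site (3 guanines, any 2 bases, 3 thymines and 2 cytosines), and to TATAAA, bound by the general transcription factor TBP and called the TATA motif here. Both strands were searched, and no capital stretch belongs to more than 1 of these 3 motifs. Of all 32851 windows in the table, 7.02% held the STAT motif, 1.41% the NF-kB motif and 12.4% the TATA motif. The forkhead motif TGTTTAC, in 3.17% of all windows, had no match in the 7. The NFAT core GGAAA was in all 7, but also in 55.6% of all windows, and it is left in lower case because it overlaps the STAT motif of Foxp3 and the NF-kB motif of Tnfrsf9.
Foxp3, chrX:7579426-7579675, plus strand: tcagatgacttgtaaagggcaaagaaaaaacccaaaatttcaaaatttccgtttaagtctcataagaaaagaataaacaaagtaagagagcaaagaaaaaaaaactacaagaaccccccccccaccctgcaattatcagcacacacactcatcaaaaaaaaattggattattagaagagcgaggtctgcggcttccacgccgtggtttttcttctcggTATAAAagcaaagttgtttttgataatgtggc
Foxp3, chrX:7580233-7580482, plus strand: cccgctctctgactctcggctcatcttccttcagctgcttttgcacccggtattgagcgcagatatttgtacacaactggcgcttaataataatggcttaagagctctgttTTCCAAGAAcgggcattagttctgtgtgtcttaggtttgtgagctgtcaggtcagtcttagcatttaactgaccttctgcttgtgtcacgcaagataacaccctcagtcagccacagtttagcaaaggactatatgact
Tnfrsf18, chr4:156026072-156026321, plus strand: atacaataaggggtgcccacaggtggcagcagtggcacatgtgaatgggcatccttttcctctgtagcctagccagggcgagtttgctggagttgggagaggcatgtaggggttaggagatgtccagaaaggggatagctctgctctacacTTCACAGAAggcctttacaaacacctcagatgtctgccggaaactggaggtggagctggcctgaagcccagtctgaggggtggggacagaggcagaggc
Tnfrsf9, chr4:150927749-150927998, plus strand: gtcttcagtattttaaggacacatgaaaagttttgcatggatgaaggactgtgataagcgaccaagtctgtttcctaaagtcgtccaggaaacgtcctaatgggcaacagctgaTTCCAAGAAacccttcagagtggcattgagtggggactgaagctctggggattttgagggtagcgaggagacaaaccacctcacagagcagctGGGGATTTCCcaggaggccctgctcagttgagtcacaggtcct

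Counted back from each start site at position 1, the first Foxp3 window held the TATA motif at -32 to -27 and the second the STAT motif at -139 to -131. The Tnfrsf18 window held a STAT motif at -99 to -91. In the Tnfrsf9 window a STAT motif lay at -136 to -128 and an NF-kB motif at -43 to -34, so Tnfrsf9 was the only member of the 5 with both. The single windows of Il2ra and Tnfrsf4 and the other window of Tnfrsf9 held the NFAT core and none of the other 4 motifs. The printed Foxp3 and Tnfrsf9 windows lie within the GENCODE spans of their genes, and the Tnfrsf18 motif lies past the GENCODE start of Tnfrsf18. A match describes letters and is not a measured binding site.

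Values are given as TPM, the deposited FPKM of a gene rescaled so that each library sums to 1000000, which compares genes per length. Libraries fell into sets that crossed the treatments. In 5 libraries the FPKM values summed to 782919 to 921581 (control replicates 4 and 7, IL-10-Fc replicate 7, aCSF1R replicate 8 and BF10 replicate 6, called higher-sum here), and in the other 7 to 609695 to 648413 (lower-sum). The mitochondrial share of the sum was 3.14% to 3.96% for lower-sum libraries, against 5.90% to 9.26% for higher-sum ones. Relative depth was estimated as the most common FPKM ratio to a reference library, aCSF1R replicate 4, over genes above 0 in at most 6 libraries. It was 0.917 to 1.07 of the median library, but rested on 6 to 18 genes for each library besides the reference. Ratios far from equal were left out, so a large difference in depth could not show. Between 23012 and 25299 genes were above 0 per library. T cell markers were present throughout, with the sum of 8 genes at 15.1 TPM or more in every library. CD4 markers were scarce: the sum of Cd4 and Cd40lg ranged from 0.0217 to 3.63 TPM, and Cd40lg did not pass the filter.

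The genes were low in these tumors. Foxp3 had the lowest mean level of the 6 in every group, and all but Tnfrsf9 stayed at 5.24 TPM or lower in each library. The deposited comparison tables also give counts, which depend on gene length as TPM does not, and Foxp3 was lowest and Tnfrsf9 highest there too: the authors' mean count per gene and library ran from 40.3 to 60.9 for Foxp3, 49.8 to 75.1 for Tnfrsf4, 65.1 to 76.3 for Tnfrsf18, 77.5 to 115.0 for Il2ra, 356 to 416 for Ikzf2 and 463 to 568 for Tnfrsf9. Counts this low limit the precision of a single Foxp3, Tnfrsf4, Tnfrsf18 or Il2ra value.

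Foxp3, the lineage factor, was measured at 0.258, 0.651 and 0.654 TPM in control replicates 4, 5 and 7, at 0.848, 0.941 and 0.383 TPM in IL-10-Fc replicates 2, 4 and 7, at 1.02, 0.754 and 0.0651 TPM in aCSF1R replicates 4, 6 and 8, and at 1.31, 0.326 and 1.21 TPM in BF10 replicates 3, 6 and 7. BF10 tumors gave both of the highest levels, yet the remaining BF10 tumor ranked 10 of 12, and every pair of groups overlapped. The group means were 0.521 ± 0.228 TPM for control, 0.615 ± 0.495 for aCSF1R, 0.724 ± 0.299 for IL-10-Fc and 0.950 ± 0.543 for BF10 (SD, n = 3). In that order no neighbors differed beyond their spread.

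Ikzf2, which encodes Helios, was 1.73, 2.18 and 1.19 TPM in control replicates 4, 5 and 7, 1.95, 1.90 and 1.78 TPM in IL-10-Fc replicates 2, 4 and 7, 2.31, 2.82 and 1.52 TPM in aCSF1R replicates 4, 6 and 8, and 1.55, 1.23 and 1.97 TPM in BF10 replicates 3, 6 and 7. Its levels ran from 1.19 to 2.82 TPM over all tumors, and the order of its group means was another one: 2.22 ± 0.656 TPM for aCSF1R, 1.87 ± 0.0884 for IL-10-Fc, 1.70 ± 0.495 for control and 1.58 ± 0.372 for BF10 (SD, n = 3). BF10 thus had the lowest Ikzf2 mean and the highest Foxp3 mean, while the libraries of each pair of groups overlapped for both genes.

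Il2ra, the CD25 chain of the interleukin-2 receptor, was 0.370, 1.87 and 0.543 TPM in control replicates 4, 5 and 7, 1.19, 1.56 and 0.447 TPM in IL-10-Fc replicates 2, 4 and 7, 1.04, 2.76 and 0.239 TPM in aCSF1R replicates 4, 6 and 8, and 2.47, 0.362 and 2.50 TPM in BF10 replicates 3, 6 and 7. Each group held 1 or 2 libraries above 1 TPM and 1 or 2 well below it, and all of the low ones were higher-sum libraries. Its group means ran from 0.929 ± 0.823 TPM in control to 1.78 ± 1.23 in BF10 (SD, n = 3).

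The neighbors Tnfrsf4 and Tnfrsf18 had similar levels. Tnfrsf4, which encodes OX40, was 1.13, 3.00 and 2.79 TPM in control replicates 4, 5 and 7, 4.16, 3.99 and 2.64 TPM in IL-10-Fc replicates 2, 4 and 7, 3.54, 4.02 and 1.03 TPM in aCSF1R replicates 4, 6 and 8, and 5.24, 2.41 and 4.69 TPM in BF10 replicates 3, 6 and 7. Tnfrsf18, which encodes GITR, was 2.20, 3.05 and 3.36 TPM in the control replicates in the same order, 2.58, 4.30 and 2.26 TPM in IL-10-Fc, 2.7, 3.46 and 1.51 TPM in aCSF1R, and 5.21, 2.01 and 3.88 TPM in BF10. BF10 replicate 3 was the highest library for both genes and aCSF1R replicate 8 the lowest, and BF10 overlapped every other group. Mean levels of BF10 and control were 4.11 ± 1.5 and 2.31 ± 1.02 TPM for Tnfrsf4, and 3.70 ± 1.61 and 2.87 ± 0.601 TPM for Tnfrsf18 (SD, n = 3).

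Tnfrsf9, which encodes 4-1BB, was the most abundant of the 6. It was 6.39, 17.9 and 5.97 TPM in control replicates 4, 5 and 7, 19.6, 15.2 and 5.44 TPM in IL-10-Fc replicates 2, 4 and 7, 32.4, 28.2 and 3.80 TPM in aCSF1R replicates 4, 6 and 8, and 16.9, 4.57 and 19.0 TPM in BF10 replicates 3, 6 and 7. The aCSF1R group held both of the highest libraries and the lowest one, and its mean was 21.5 ± 15.5 TPM against 10.1 ± 6.77 in control (SD, n = 3). The library aCSF1R replicate 8 was the lowest of the 12 for 5 of the 6 genes, all but Ikzf2.

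**Figure D1:**
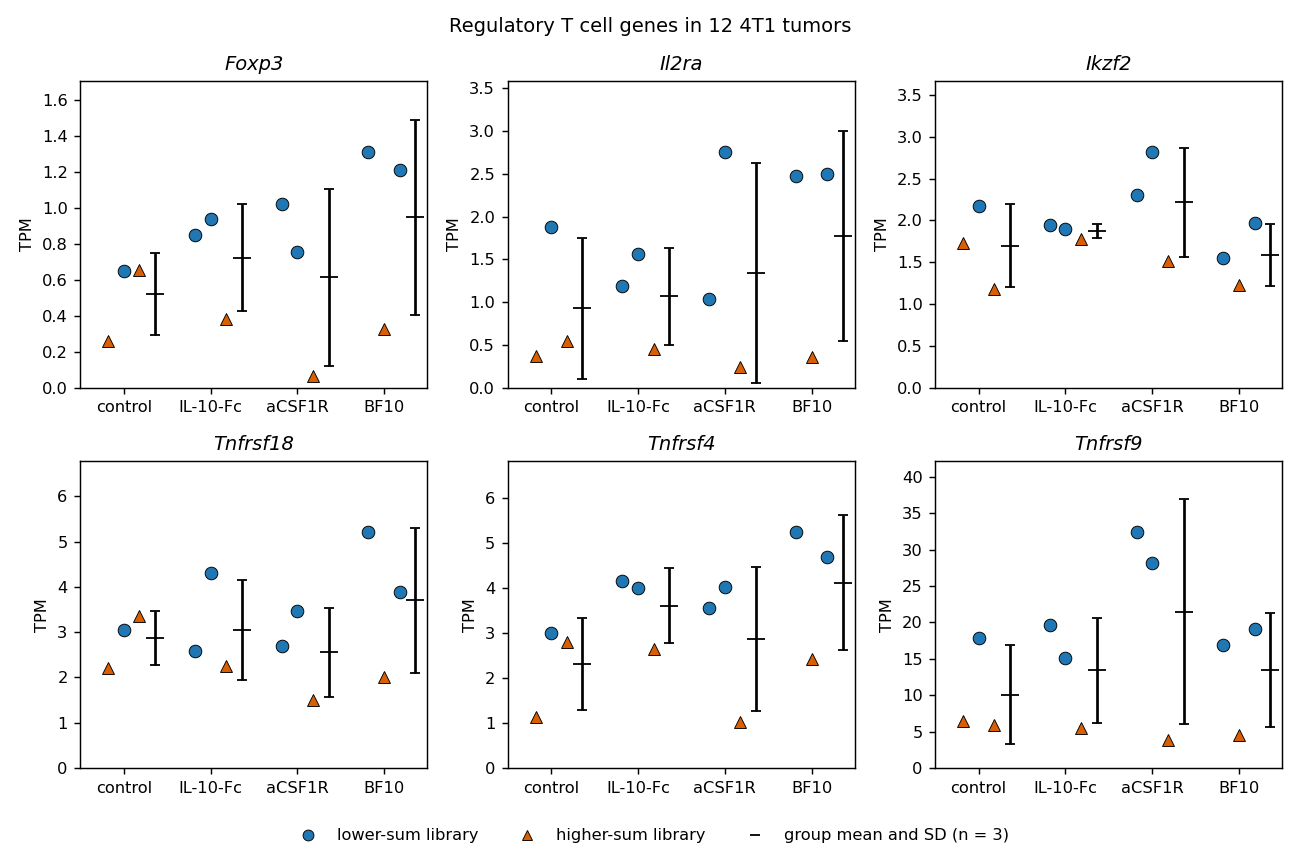
Level of each regulatory T cell gene in TPM (linear axis from 0) in the 12 tumors, by treatment; circles are lower-sum and triangles higher-sum libraries, and the bar beside each group is the mean with its SD (n = 3). Points of the 4 treatments overlap for every gene, and the triangles lie low, as for Tnfrsf9 at 3.80 to 6.39 TPM against 15.2 to 32.4 TPM for the circles.

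The study asked how the fusion protein acts beside each of its parts, and 6 pairwise comparisons were made for the regulatory T cell genes. None of the 6 genes passed the threshold (limma, Benjamini-Hochberg adjusted p below 0.05 over all tested genes and at least 1.5-fold) in any of them, and none was past an unadjusted p of 0.05. Over all tested genes the share past the threshold was 0% in BF10 against control, 0.00645% in IL-10-Fc against control, 0.568% in aCSF1R against control, 0% in BF10 against IL-10-Fc, 0.735% in BF10 against aCSF1R and 0.542% in IL-10-Fc against aCSF1R. An unadjusted p below 0.05 was reached by 1.51%, 1.44%, 3.46%, 0.271%, 4.26% and 3.56% of all genes in the same order. No member had groups that did not overlap, where the share over all genes was 3.53%, 6.53%, 5.28%, 2.13%, 5.91% and 7.49% in the same order of comparisons.

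BF10 against control gave differences in log2(TPM + 1) of 0.33 ± 0.31 (SE) for Foxp3, 0.48 ± 0.50 for Il2ra, 0.63 ± 0.42 for Tnfrsf4, 0.23 ± 0.35 for Tnfrsf18, 0.34 ± 0.81 for Tnfrsf9 and -0.05 ± 0.25 for Ikzf2. The lowest unadjusted p among all 36 values was that of Tnfrsf4 here (limma adjusted p = 0.788). The median difference of the 6 genes was 0.34 on this scale, against 0.32 over all tested genes, so the members sat where the typical gene did. IL-10-Fc against control gave 0.18 for Foxp3, 0.51 for Tnfrsf4 and 0.38 for Tnfrsf9, with a member median of 0.16 against 0.35 over all genes. In aCSF1R against control the values were 0.05 for Foxp3 and 0.76 ± 0.81 (SE) for Tnfrsf9, and the medians were 0.19 and 0.24.

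BF10 minus IL-10-Fc, which differ by the antibody part and in form, was 0.15 for Foxp3, 0.34 for Il2ra and -0.16 for Ikzf2 in log2(TPM + 1), with a member median of 0.14 against -0.05 over all genes. BF10 minus aCSF1R, which differ by interleukin-10 and in form, was 0.28 for Foxp3, 0.46 for Tnfrsf4, -0.30 for Ikzf2 and -0.41 for Tnfrsf9, with medians of 0.27 and 0.06. IL-10-Fc minus aCSF1R was 0.13 for Foxp3 and -0.38 for Tnfrsf9, with medians of 0.03 and 0.11. The adjusted p of every member was 1 in these 3 comparisons (limma).

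Intervals were wide for the scarce genes. For Foxp3 in BF10 against control the 95% interval of the difference was -0.35 to 1.00 in log2(TPM + 1). A halving of the control mean would be -0.27 on this scale and a doubling 0.42, so neither a halving nor a doubling lay outside it. Both also lay inside the Foxp3 interval in each of the other 5 comparisons. The interval for Tnfrsf4 in BF10 against control, -0.29 to 1.55, did leave out a halving (-0.62), and that for Ikzf2, -0.60 to 0.49, left out a doubling (0.70). A p that misses the threshold therefore does not show that the groups had equal levels.

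**Figure D2:**
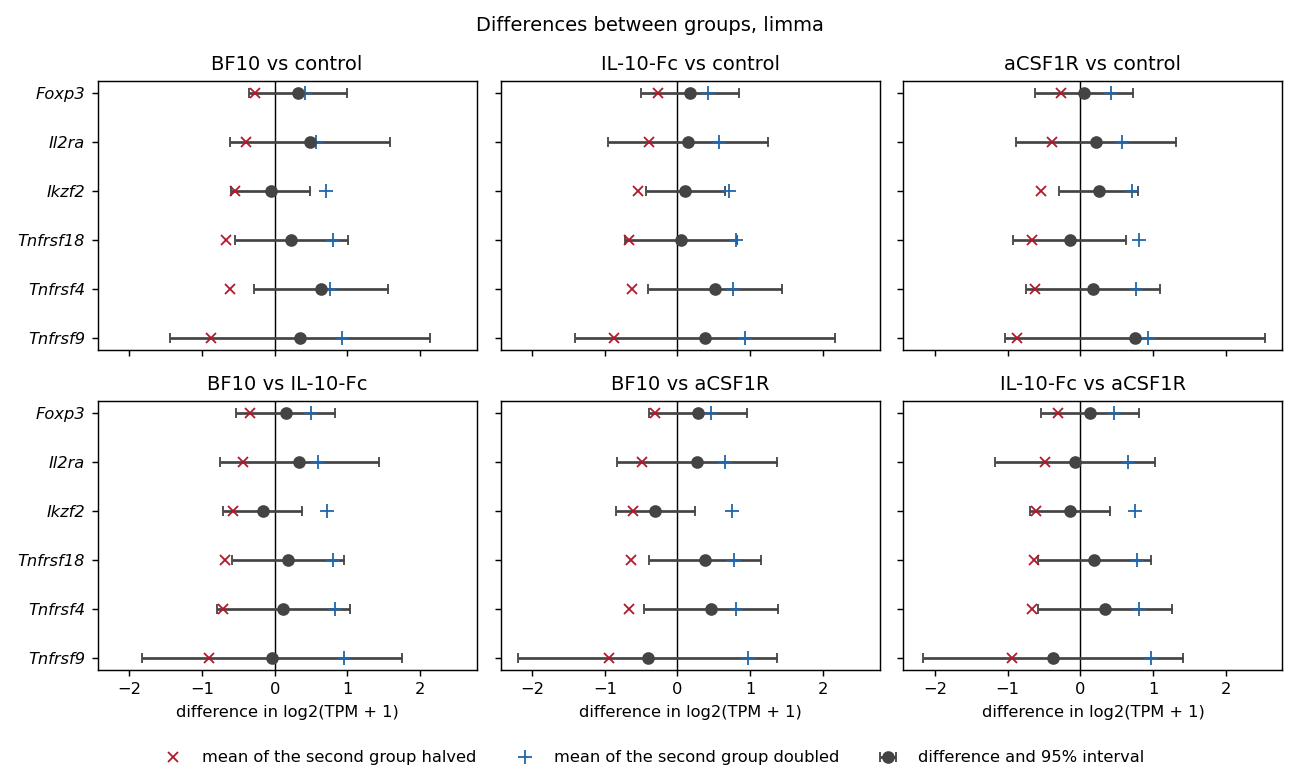
Difference in log2(TPM + 1) between the first and the second group of each comparison for the 6 genes, with 95% intervals from limma; crosses and plus signs mark where a halving or a doubling of the second group's mean would fall. Every interval spans 0, and for Foxp3 both marks fall inside it in all 6 comparisons.

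The genes differed by library set in TPM. TPM divides by the same FPKM sum that defines the sets, so part of these differences follows from the scaling, and the p-values do not set that part aside. With the groups in the model, lower-sum libraries were higher than higher-sum ones by 1.84 ± 0.19 (SE) in log2(TPM + 1) for Tnfrsf9 (adjusted p = 2.3e-05), 1.05 ± 0.18 for Il2ra (adjusted p = 0.00033) and 0.75 ± 0.18 for Tnfrsf4 (adjusted p = 0.0032), all by limma. These 3 of 6 genes passed the threshold, and 59.2% of all tested genes did. Foxp3 (0.56, adjusted p = 0.0055) and Tnfrsf18 (0.52, adjusted p = 0.020) were below 1.5-fold, and Ikzf2 gave 0.31 (adjusted p = 0.051). The median over all genes was 0.68. Every lower-sum library lay above every higher-sum library for Il2ra, Tnfrsf4 and Tnfrsf9, as for 48.8% of all genes. Control held 2 higher-sum libraries and the other groups 1 each, so the set and a comparison with control are partly confounded.

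Many T cell genes, though not all, moved with the set, as did most tested genes. Of the 8 T cell markers 6 were higher in the lower-sum libraries past the threshold, with a list median of 0.80 in log2(TPM + 1). Over all tested genes 59.2% passed, in either direction, and the median was 0.68. Cd3d (-0.14, limma adjusted p = 0.741) and Cd3g (0.49, adjusted p = 0.080) did not pass. Of the CD8 markers Cd8a passed (0.85) and Cd8b1 did not (0.06, limma adjusted p = 0.809). Cd4 was 1.23 to 3.30 TPM in the lower-sum libraries and 0.0217 to 0.809 TPM in the higher-sum ones, and Cd3e, a chain of the T cell receptor complex, was 3.54 to 6.93 against 0.434 to 2.63 TPM. Foxp3 itself was 0.651 to 1.31 TPM against 0.0651 to 0.654 TPM, with control replicate 7 the only higher-sum library that reached the lower-sum range. What makes the sets differ was not tested.

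When the model also held a term for the set, again 0 of the 6 genes passed the threshold in any comparison. The Foxp3 differences from control became -0.14 for aCSF1R, 0.14 for BF10 and -0.01 for IL-10-Fc in log2(TPM + 1), and the Tnfrsf4 difference between BF10 and control became 0.38 ± 0.25 (SE, limma adjusted p = 0.993). Over all genes, 0.00645% passed in BF10 against control, 0.0258% in IL-10-Fc against control and 2.01% in aCSF1R against control in that fit, and 0%, 2.82% and 2.13% in BF10 against IL-10-Fc, BF10 against aCSF1R and IL-10-Fc against aCSF1R.

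Among the 7 lower-sum libraries alone, both aCSF1R tumors (28.2 and 32.4 TPM) lay above the other 5 (15.2 to 19.6 TPM) for Tnfrsf9, a pattern that 14.8% of all tested genes had. Limma on these 7 libraries gave aCSF1R minus control as 0.73 ± 0.21 (SE, adjusted p = 0.459), BF10 minus aCSF1R as -0.72 ± 0.17 (adjusted p = 0.184) and IL-10-Fc minus aCSF1R as -0.78 ± 0.17 (adjusted p = 0.236) for Tnfrsf9. None passed the threshold, and the single higher-sum aCSF1R tumor went the other way, at 3.80 TPM the lowest of all. Only 1 control tumor is in this fit, and it is assumed to vary like the others. Foxp3 was 0.45 ± 0.25 higher in BF10 than in that control tumor (adjusted p = 0.737).

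Tnfrsf9 has other sources in a tumor, and mast cells are among the cells that can make it. The sum of 5 mast cell genes was 8.73 to 23.8 TPM in control tumors, 9.07 to 26.0 in IL-10-Fc, 13.3 to 35.1 in BF10 and 40.6 to 175 in aCSF1R, so aCSF1R did not overlap the other groups. Of all single genes, 5.28%, 7.49% and 5.91% did not overlap between aCSF1R and control, IL-10-Fc and BF10, taken pair by pair. Of its 4 tested genes 0 passed the threshold and 3 had an unadjusted p below 0.05 in aCSF1R against control, among them Mcpt4, a mast cell protease (2.55 in log2(TPM + 1), limma adjusted p = 0.275). Across the 12 libraries, after centering within each set, Pearson's r of Tnfrsf9 was 0.72 with Kit, the stem cell factor receptor, and 0.02, 0.03 and 0.08 with Cpa3, Mcpt4 and Tpsb2. The tumor with the highest sum was aCSF1R replicate 8 (Mcpt4 64.6 and Cpa3 57.9 TPM), which had the lowest Tnfrsf9 of all, 3.80 TPM. The part of mast cells in the Tnfrsf9 level was not tested.

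Next, Foxp3 was set against T cell genes of the same library, to ask whether it moved apart from the T cell signal. Log2(Foxp3 TPM + 1) minus the mean of Cd3d, Cd3e and Cd3g on the same scale was -1.78 ± 0.38 in control, -1.72 ± 0.33 in BF10, -1.69 ± 0.30 in aCSF1R and -2.12 ± 0.12 in IL-10-Fc (SD, n = 3). BF10 and control differed by 0.06 (two-sided exact permutation p = 0.8, n = 3). With 3 against 3 tumors no exact p can be below 0.1, which is above 0.05, so no comparison of this kind could pass. The smallest, IL-10-Fc against aCSF1R, gave -0.43 (exact p = 0.1, the smallest it can give, and 0.4 after Benjamini-Hochberg adjustment over 12 tests). Plain ratios of TPM, with no 1 added, were chosen after seeing the data. By them IL-10-Fc minus aCSF1R was 0.09 (exact permutation p = 0.9), so its sign depends on the pseudocount. BF10 minus IL-10-Fc was 0.40 with 1 added (exact permutation p = 0.3). As plain ratios it was 0.61 (exact permutation p = 0.1, the smallest it can give), and these groups did not overlap. Of all single genes, 2.13% did not overlap between BF10 and IL-10-Fc. In every other comparison the plain ratios to the CD3 genes overlapped.

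Relative to Cd8a, the CD8 coreceptor chain, Foxp3 was -1.33 ± 0.17 in control, -1.5 ± 0.22 in BF10, -1.59 ± 0.43 in aCSF1R and -2.11 ± 0.21 in IL-10-Fc (SD, n = 3). By library the values were -2.28, -2.17 and -1.88 in IL-10-Fc replicates 2, 4 and 7, and -1.51, -1.32 and -1.17 in control replicates 4, 5 and 7. On this scale IL-10-Fc minus control was -0.78 and BF10 minus IL-10-Fc 0.61 (exact permutation p = 0.1 for each, 0.4 after adjustment). Adding 1 compresses Foxp3 far more than Cd8a, so these values depend more on Cd8a than a plain ratio does. As plain ratios of TPM, an alternative chosen after seeing the data, Foxp3 per Cd8a was 0.106, 0.122 and 0.0938 in IL-10-Fc replicates 2, 4 and 7 and 0.0996, 0.208 and 0.241 in control replicates 4, 5 and 7, and the groups overlapped (difference of mean log2 ratios -0.68, exact permutation p = 0.3). The BF10 ratios were 0.193, 0.129 and 0.262 in replicates 3, 6 and 7. They lay above those of IL-10-Fc (0.81, exact permutation p = 0.1, the smallest it can give). Between these groups 2.13% of all single genes did not overlap. The ratios of aCSF1R replicates 4, 6 and 8 were 0.196, 0.125 and 0.0484. Cd8a itself was 4.09 to 7.98 TPM in IL-10-Fc and 2.59 to 3.13 TPM in control, without overlap, as for 6.53% of all genes. The other CD8 marker, Cd8b1, did overlap, at 3.72 to 5.59 TPM in IL-10-Fc and 2.05 to 4.67 TPM in control. Foxp3 overlapped as well, at 0.383 to 0.941 and 0.258 to 0.654 TPM. Cd8a was also higher in the lower-sum libraries (0.85 in log2(TPM + 1)), and control held more higher-sum libraries than IL-10-Fc. BF10 and control differed by -0.17 (exact permutation p = 0.4). As plain ratios BF10 minus control was 0.13 in mean log2 ratio (exact permutation p = 0.7), so the direction depends on the pseudocount.

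**Figure D3:**
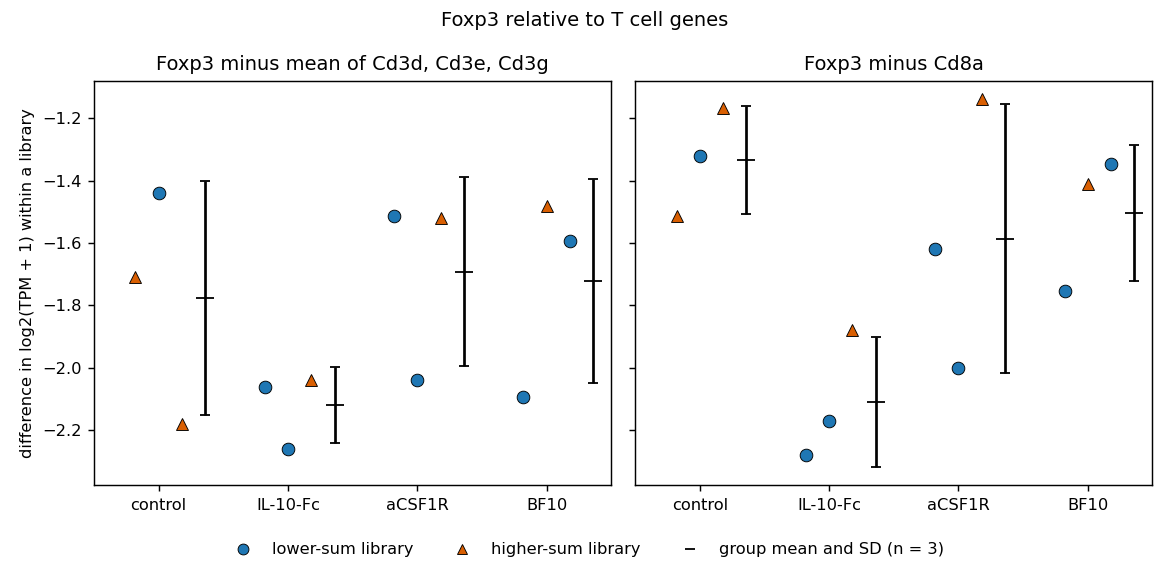
Foxp3 minus the mean of the CD3 genes (left) and minus Cd8a (right), as differences in log2(TPM + 1) within each of the 12 libraries; bars are group means with SD (n = 3). On the right the IL-10-Fc tumors sit at -2.28 to -1.88, but 1 is added to a gene near 0, and as plain ratios of TPM the IL-10-Fc and control tumors overlap (0.0938 to 0.122 and 0.0996 to 0.241).

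The ligands and partners of these receptors were scarce or showed no call. Of the ligand genes Tnfsf18, Tnfsf4, Tnfsf9 and Il2, only Tnfsf9, the ligand of 4-1BB, passed the filter, and 0 of 1 passed the threshold in each comparison. Tnfsf9 averaged 6.20 ± 4.91 TPM in control, 8.28 ± 4.52 in BF10, 9.46 ± 5.84 in aCSF1R and 9.99 ± 5.17 in IL-10-Fc (SD, n = 3). Il2 reached 0.266 TPM at most. All 9 genes of the interleukin-2 receptor partners and their signaling (Il2rb, Il2rg, Jak1, Jak3, Stat5a, Stat5b, Cish, Socs2 and Bcl2) were tested, and 0 passed in any of the 6 comparisons. Their median difference was 0.37 in BF10 against control and 0.04 in BF10 against aCSF1R in log2(TPM + 1), beside 0.32 and 0.06 over all genes.

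Other surface genes of regulatory T cells behaved likewise: 10 of 14 passed the filter and 0 of these passed the threshold in any comparison. Ctla4, the checkpoint receptor, averaged 5.27 ± 1.93 TPM in BF10 and 4.86 ± 3.34 in control, and Icos, a costimulatory receptor, 2.54 ± 1.34 and 2.09 ± 1.03 (SD, n = 3). Tigit, an inhibitory receptor that NK and CD8 T cells also carry, was 10.8 to 23.3 TPM in the lower-sum and 0.792 to 3.58 TPM in the higher-sum libraries. Ccr8, a chemokine receptor of tumor regulatory T cells, did not pass the filter and was at 0 in 1 aCSF1R and 1 BF10 library, with 0.720 TPM the highest value. Klrg1, a marker of differentiated lymphocytes, gave -0.96 in IL-10-Fc against control (limma adjusted p = 0.738).

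Suppressor effector genes had 1 call. Fgl2, a secreted prothrombinase-like protein that regulatory T cells and macrophages make, was the 1 gene of 9 tested that passed in any comparison. It was higher in BF10 than in aCSF1R by 1.66 ± 0.27 in log2(TPM + 1) (SE, limma adjusted p = 0.0167), where 0.735% of all genes passed. Its level was 31.8, 21.0 and 33.7 TPM in BF10 replicates 3, 6 and 7 and 10.8, 7.97 and 6.51 TPM in aCSF1R replicates 4, 6 and 8. These did not overlap, as for 5.91% of all genes. The control and IL-10-Fc tumors, at 17.3 to 24.7 TPM, also lay above aCSF1R, and Fgl2 did not pass in BF10 against control. The list's median in that comparison was -0.32 against 0.06 over all genes. Without aCSF1R replicate 6, without BF10 replicate 3, without BF10 replicate 7, or with TPM scaled by the median of ratios, 0 genes of the list passed. Gzmb, a granzyme of cytotoxic cells, gave 1.41 in aCSF1R against control (limma adjusted p = 0.893).

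Macrophage markers also differed between BF10 and aCSF1R. Of 6 macrophage genes, C1qa (3.66), Adgre1 (2.60) and Mrc1 (2.50) were higher in BF10 than in aCSF1R in log2(TPM + 1), each past the threshold, and the summed level of the 6 was 33.4 to 144 TPM in aCSF1R against 627 to 982 TPM in the other groups. The part of macrophages in the Fgl2 level was not tested. Of the tested markers of other cells, 0 of 4 NK cell, 0 of 2 B cell, 0 of 4 group 2 innate lymphoid cell, 0 of 5 mature dendritic cell, 0 of 5 neutrophil, 0 of 5 endothelial and 0 of 4 tumor epithelium genes passed in any comparison, nor did any of the 8 T cell, 1 CD4 and 2 CD8 markers.

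The list of 21 transcription factors of regulatory T cells had 16 tested genes and 0 calls in any comparison. The closest was Batf, which regulatory and effector T cells and dendritic cells use, at 1.23 ± 0.30 in BF10 against aCSF1R (SE, limma adjusted p = 0.15). Batf was 0.998 to 2.23 TPM in aCSF1R and 3.25 to 6.73 TPM in the other tumors. The median of the list in BF10 against control was 0.49 beside 0.32 over all genes, with 16 of 16 differences above 0 and none past the threshold. Differences above 0 were not counted over all genes. Of the 16, 12 were higher in the lower-sum libraries past the threshold, beside 59.2% of all genes in either direction, and control held the most higher-sum libraries. With the set as a term the medians were 0.14 and 0.07. Of the chemokines that act on CCR4, CCR6 and CCR8, 4 of 6 were tested and 0 passed; Ccl8 was 68.5 to 124 TPM in aCSF1R and 104 to 516 TPM in control, and Ccl17 2.44 to 3.36 TPM in IL-10-Fc and 4.76 to 19.1 TPM in control.

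**Figure D4:**
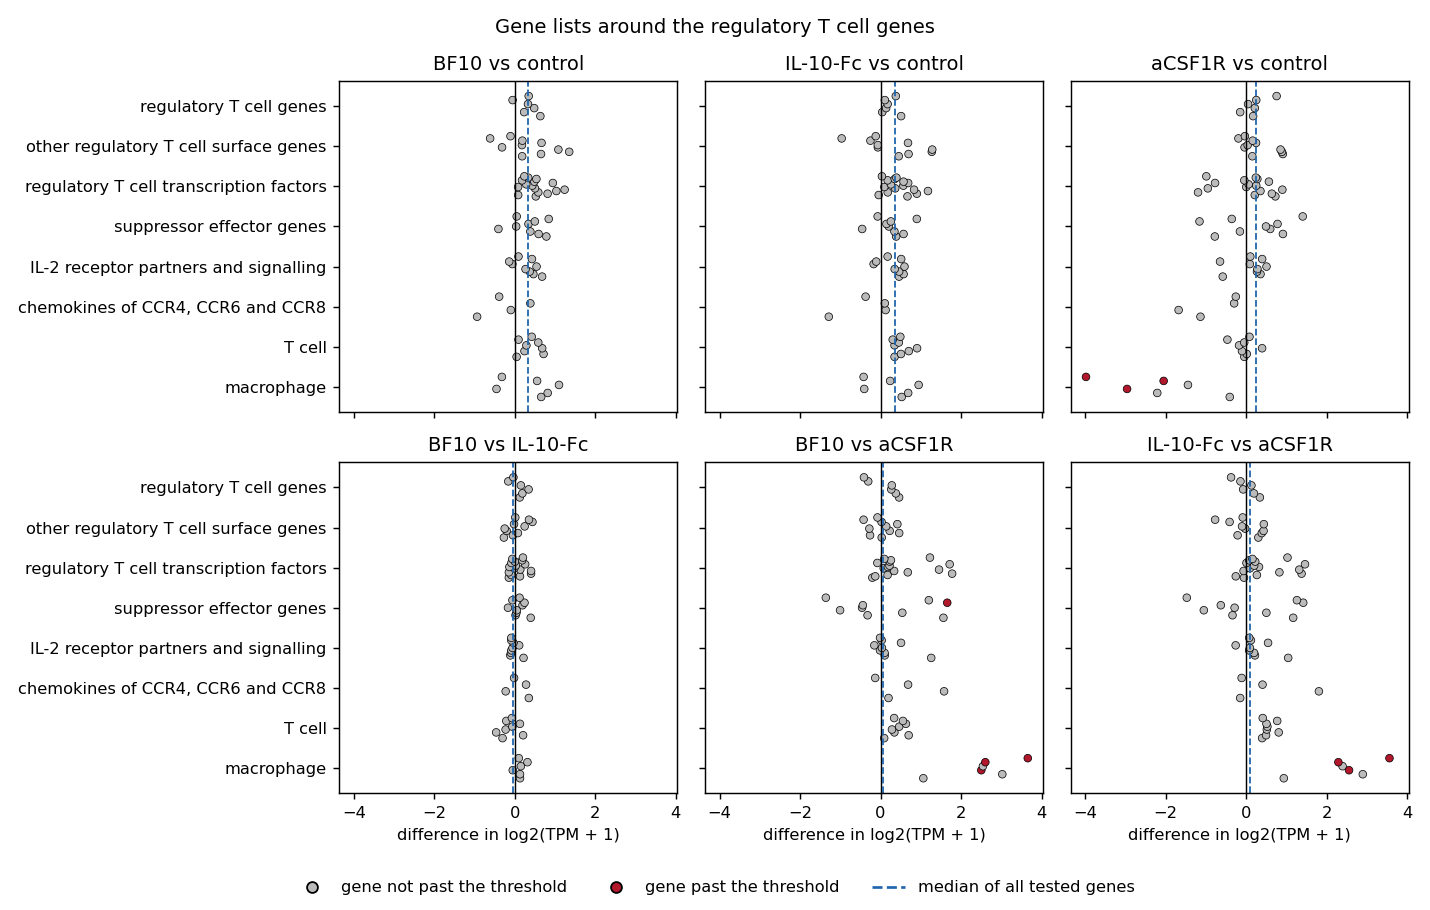
Difference in log2(TPM + 1) of each tested gene in the regulatory T cell genes, related lists, T cell markers and macrophage markers, for the 6 comparisons; red points passed the threshold and the dashed line is the median of all tested genes. The regulatory T cell genes stay grey in every panel, and the red points are 3 macrophage genes in each comparison with aCSF1R and Fgl2 in BF10 against aCSF1R.

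The 6 genes did not vary as 1 block from tumor to tumor. After each gene was centered within the library sets, Pearson's r of Foxp3 over the 12 libraries was 0.81 with Tnfrsf4, 0.77 with Tnfrsf18, 0.31 with Il2ra, 0.13 with Tnfrsf9 and -0.55 with Ikzf2. Tnfrsf18 had 0.64 with Il2ra and 0.63 with Tnfrsf4. Ikzf2 and Tnfrsf9 had 0.58 with each other. Ikzf2 had -0.49 with Tnfrsf18 and -0.45 with Tnfrsf4, and Tnfrsf9 had -0.16 to 0.13 with the 4 members other than Ikzf2. These are descriptions over 12 libraries that share 4 treatments, and values for scarce genes carry counting noise.

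By the same measure Foxp3, Tnfrsf4 and Tnfrsf18 had high values with T cell genes, though not with these alone. For all of these members BF10 replicate 3 was the highest lower-sum library and aCSF1R replicate 8 the lowest higher-sum one. The same held for Cd3d, Cd3e, Cd247, Cd2, Cd5 and Lck, while IL-10-Fc replicate 4 was highest for Cd3g and Trac. How far such extreme libraries carry the values of r was not tested. The median r with the 8 T cell markers was 0.73 for Foxp3, 0.72 for Tnfrsf4 and 0.73 for Tnfrsf18, against 0.34 for Il2ra, 0.03 for Tnfrsf9 and -0.33 for Ikzf2. Foxp3 had 0.78 with Cd4, 0.44 as the median with Cd8a and Cd8b1, and 0.60 with the macrophage markers, whose levels differ by treatment. The median r with the 2 tested B cell genes was 0.71 for Foxp3, 0.60 for Tnfrsf18 and 0.45 for Tnfrsf4. The median over all tested genes was 0.10 for Foxp3, 0.27 for Tnfrsf4 and -0.02 for Tnfrsf18. Tnfrsf4 also had medians of 0.47 with the endothelial and 0.40 with the tumor epithelium markers. Ikzf2 had -0.56 with macrophage and -0.62 with neutrophil markers.

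The 5 genes most like Foxp3 were Cytip, which binds cytohesin in lymphocytes and dendritic cells (r = 0.95, mean 14.5 TPM), Ppp1r15a, a stress-induced phosphatase subunit (0.94), Tmem254b (0.92), Gm9465 (0.89) and Gpr132, a receptor of lymphocytes and macrophages (0.89). Cytip was also among the 5 most like Tnfrsf18 (0.88), after the adaptor Stap1, the T cell surface receptor Cd6, lymphotoxin beta (Ltb) and Gm31718. Tnfrsf4 was closest to Fam234a (0.96), Nup210, Ubald1, Erp44 and Ilvbl, and Il2ra to Mir763 (0.90), the T cell kinase gene Txk (0.89), Phf14, Gm4419 and Osbpl9. Ikzf2 was closest to Gm47950 (0.97), Lmbr1, Suco, Gosr1 and Prpf39, and Tnfrsf9 to Gm42658 (0.91), Papln, Gabbr1, Jmy and Shroom4.

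**Figure D5:**
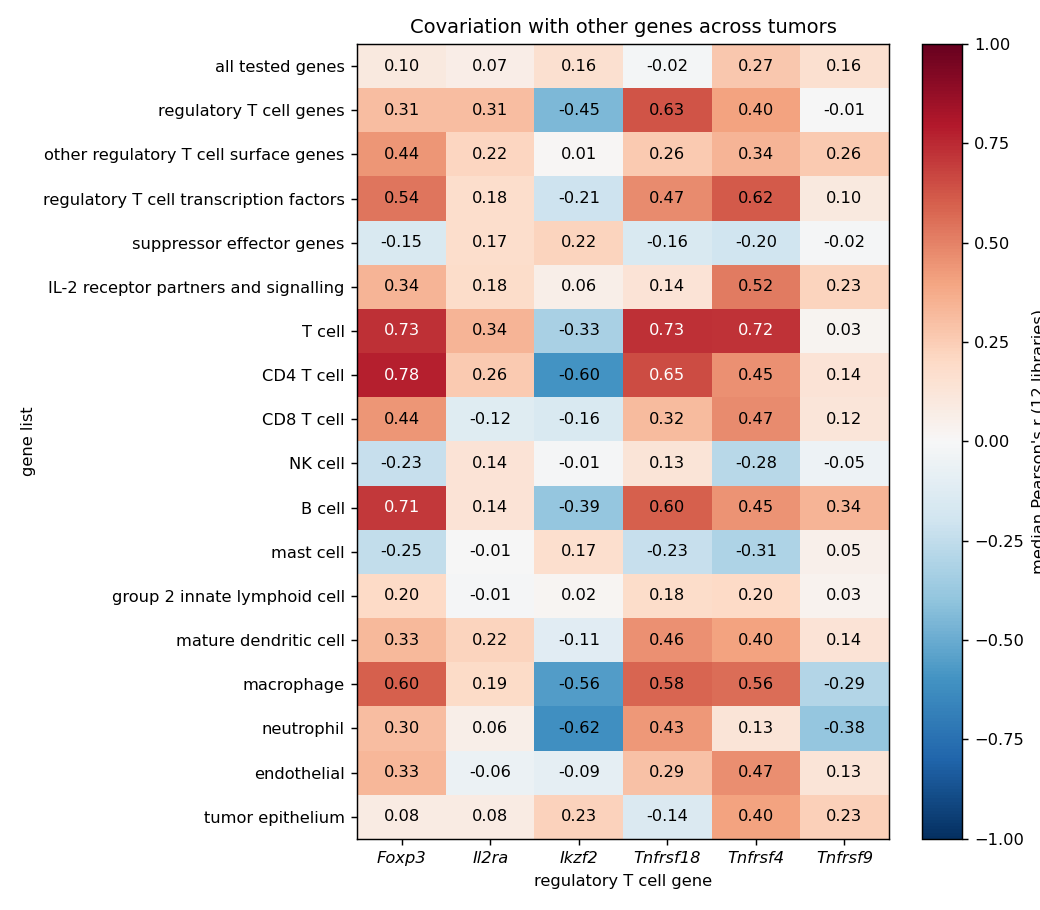
Median Pearson's r of each regulatory T cell gene (columns) with the tested genes of each list (rows) over the 12 libraries, computed on log2(TPM + 1) centered within each library set. Foxp3, Tnfrsf18 and Tnfrsf4 reach 0.73, 0.73 and 0.72 with T cell markers, while Ikzf2 and Tnfrsf9 reach -0.33 and 0.03.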

How the data were processed

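RNA of 12 tumors was sequenced as stranded mRNA libraries on an Illumina NextSeq. The submitters' processing notes name STAR 2.7.5a, RSEM 1.3.3, DESeq2 1.28.0 and the builds mm10 and GRCm38. The authors deposited FPKM values with 2 decimals for 55401 genes and 4 tables of DESeq2 comparisons. From those tables only the authors' deposited score per gene was used, a mean of scaled counts. Their fold changes and p-values hold the study's own comparisons and were left out, and 0 columns were left unmatched.

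FPKM values were divided by the library sum and multiplied by 1000000 (TPM). Genes with at least 1 TPM in at least 3 of 12 libraries entered limma 3.58.1 (R 4.3.3, eBayes with trend) on log2(TPM + 1), where changes of low genes look smaller than they are. The model had a mean for each group over the 12 libraries (8 residual degrees of freedom), and the call needed an adjusted p below 0.05 and 1.5-fold. The script was tested on simulated data (Python 3.11.15, pandas 2.3.3, scipy 1.17.1 and statsmodels 0.14.6 otherwise). Alternatives changed the pseudocount, the scaling, the filter, the set, the replicate block or the libraries, and a ratio of TPM with no pseudocount was added after seeing the data. Exact permutation tests were two-sided. Sets were split at an FPKM sum of 700000. Sequences came from RefSeq tables of GRCm38.p6, searched for 5 motifs.

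The members, lists, set boundary, tests and alternatives were chosen with earlier results of these data known. Named genes are the 6 members, genes of the lists beside their list's count, and the 5 genes most like each member by Pearson's r after centering within library sets.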

Additional observations from a re-analysis of the deposited data

How the results depend on the processing

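The count of regulatory T cell genes past the threshold was 0 of 6 in each of the 6 comparisons under every alternative. The alternatives were a pseudocount of 0.1, FPKM without rescaling, scaling by the median of ratios, no filter, the library set as a term, the 7 lower-sum libraries alone, a block for the replicate number, and leaving out each library. The lowest adjusted p was 0.053, for Tnfrsf9 in aCSF1R against control with the replicate block (2.57 in log2(TPM + 1)). In that fit 7153 of 15504 tested genes had an unadjusted limma p below 0.05, and 0 passed the threshold. The median difference of all genes there was 0.93. Signs were less stable: of the member differences under the first 7 kinds of setting, 214 kept their sign and 38 changed it, and with a library left out 398 kept it and 34 changed it, none of them past the threshold on either side. Scaling by the median of ratios changed the sign in BF10 against control Tnfrsf18 (-0.078), in IL-10-Fc against control Il2ra (-0.027), Ikzf2 (-0.17), Tnfrsf18 (-0.30), Tnfrsf9 (-0.017), in aCSF1R against control Foxp3 (-0.14), Tnfrsf4 (-0.035), in BF10 against IL-10-Fc Tnfrsf9 (0.018). FPKM without rescaling changed the sign in IL-10-Fc against control Ikzf2 (-0.021), Tnfrsf18 (-0.11), in aCSF1R against control Foxp3 (-0.043). The set term changed the sign in BF10 against control Tnfrsf9 (-0.27), in IL-10-Fc against control Foxp3 (-0.010), Il2ra (-0.21), Tnfrsf18 (-0.13), Tnfrsf9 (-0.23), in aCSF1R against control Foxp3 (-0.14), Il2ra (-0.14), Tnfrsf4 (-0.079). Lower-sum libraries alone changed the sign in BF10 against control Foxp3 over CD3 genes (-0.40), in aCSF1R against control Foxp3 over CD3 genes (-0.34), Il2ra (-0.054), Tnfrsf18 (0.0047), in IL-10-Fc against control Il2ra (-0.28), Ikzf2 (-0.12), Tnfrsf9 (-0.050), in BF10 against IL-10-Fc Tnfrsf9 (0.052). A pseudocount of 0.1 changed the sign in aCSF1R against control Foxp3 over CD3 genes (-0.044), Foxp3 (-0.12), in BF10 against aCSF1R Foxp3 over CD3 genes (0.36), in BF10 against control Foxp3 over Cd8a (0.052), in IL-10-Fc against aCSF1R Il2ra (0.030). Ratios of TPM with no pseudocount, chosen after seeing the data, changed the sign in aCSF1R against control Foxp3 over CD3 genes (-0.29), in BF10 against aCSF1R Foxp3 over CD3 genes (0.69), in IL-10-Fc against aCSF1R Foxp3 over CD3 genes (0.085), Foxp3 over Cd8a (0.0083), in BF10 against control Foxp3 over Cd8a (0.13). The replicate block changed the sign in BF10 against control Ikzf2 (0.13), in aCSF1R against control Tnfrsf18 (0.25), in BF10 against IL-10-Fc Tnfrsf18 (-0.033), Tnfrsf9 (0.62), in BF10 against aCSF1R Foxp3 (-0.17), Il2ra (-0.44), Tnfrsf18 (-0.13), Tnfrsf4 (-0.28), in IL-10-Fc against aCSF1R Foxp3 (-0.46), Tnfrsf18 (-0.10), Tnfrsf4 (-0.39). With 1 library left out, the values that changed sign in at least 1 case ran as follows. In BF10 against IL-10-Fc, Foxp3 -0.00073 to 0.41, Tnfrsf18 -0.044 to 0.48, Tnfrsf4 -0.045 to 0.39, Tnfrsf9 -0.54 to 0.55. In BF10 against aCSF1R, Foxp3 over CD3 genes -0.21 to 0.16, Foxp3 over Cd8a -0.12 to 0.31, Il2ra -0.12 to 0.72, Tnfrsf9 -1.31 to 0.18. In BF10 against control, Foxp3 over CD3 genes -0.15 to 0.24, Ikzf2 -0.20 to 0.071, Tnfrsf18 -0.00013 to 0.52. In IL-10-Fc against aCSF1R, Foxp3 -0.14 to 0.32, Il2ra -0.46 to 0.34, Tnfrsf18 -0.039 to 0.38, Tnfrsf4 -0.071 to 0.58, Tnfrsf9 -1.28 to 0.13. In IL-10-Fc against control, Ikzf2 -0.035 to 0.23, Il2ra -0.067 to 0.47, Tnfrsf18 -0.17 to 0.18. In aCSF1R against control, Foxp3 -0.14 to 0.32, Foxp3 over CD3 genes -0.12 to 0.26, Il2ra -0.20 to 0.60, Tnfrsf18 -0.33 to 0.083, Tnfrsf4 -0.12 to 0.58.

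Whether the replicate numbers pair the samples could not be decided, because the correlations of deviations followed the library set. Across sets the 5 same-numbered pairs had -0.66 to -0.26 and differently numbered pairs -0.80 to -0.18. Within a set the 2 same-numbered pairs had 0.35 to 0.42 and differently numbered pairs 0.08 to 0.78. With the replicate block the count of all genes past the threshold was 0 in aCSF1R against control (88 without it) and 1 in each of the other comparisons with aCSF1R (114 for BF10 and 84 for IL-10-Fc without it), on 2 residual degrees of freedom. The set term raised these counts to 312, 437 and 330, while scaling by the median of ratios gave 136 in the first and the lower-sum libraries alone 34. Leaving out a library gave 55 to 91 in aCSF1R against control (58 without control replicate 4, 55 without aCSF1R replicate 6), 54 to 108 in BF10 against aCSF1R (54 without BF10 replicate 3, 61 without aCSF1R replicate 6, 72 without BF10 replicate 7) and 24 to 92 in IL-10-Fc against aCSF1R (32, 24 and 28 without IL-10-Fc replicates 2, 4 and 7, 25 without aCSF1R replicate 6). In IL-10-Fc against control 0 to 4 genes passed. The median difference of all genes in BF10 against control moved from 0.32 to 0.02 with scaling by the median of ratios and to 0.07 with the set term. Depth limits Foxp3 most, at a mean of 40.3 to 60.9 counts, and of the 36 member intervals 21 hold both a halving and a doubling.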

Other observations

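With the library set as a term in the model, a fit whose set boundary comes from these data, more genes of the lists around the regulatory T cell genes passed the threshold in the comparisons with aCSF1R. Of the 16 tested transcription factors, Ikzf1 (Ikaros), Maf, Runx3 and Batf fell in aCSF1R against control, by 1.54, 1.31, 1.19 and 1.12 in log2(TPM + 1) (limma adjusted p = 0.040, 0.024, 0.037 and 0.017), where 2.01% of all genes passed. The same 4 were higher in BF10 than in aCSF1R, by 1.78, 1.45, 1.72 and 1.23, where 2.82% passed. Maf, Runx3 and Batf were also higher in IL-10-Fc than in aCSF1R, where 2.13% passed. Among 9 suppressor effector genes, Fgl2, Ebi3 and Entpd1 were higher in BF10 than in aCSF1R, by 1.66, 1.56 and 1.20. Ebi3 encodes an interleukin-35 and interleukin-27 subunit, and Entpd1 the ectonucleotidase CD39. Fgl2 fell in aCSF1R against control by 1.23 (limma adjusted p = 0.010). Fgl2 and Entpd1 were higher in IL-10-Fc than in aCSF1R as well. Of the interleukin-2 receptor partners Il2rg, the common gamma chain, was higher in BF10 than in aCSF1R (1.26, limma adjusted p = 0.046). In the same fit 5 of 6 macrophage genes fell in aCSF1R against control and 0 of the 6 regulatory T cell genes passed in any comparison. Macrophages also make many of the named genes, and their part in these values was not tested.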
